A study of Homo sapiens with 16 samples.

Results

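The human KLK3-KLK2 region was taken as chr19:51330000-51410000 (hg19), a stretch of 80 kb that holds KLK3 (chr19:51358171-51364020) and KLK2 (chr19:51376689-51383822), both read from left to right. Its members were all peaks of the 12 analysed peak lists that overlapped the region by at least 1 bp: 56 of the 816313 peaks in all. They were called in 9 of the 12 lists and fell into 22 sites, where a site is a group of overlapping peaks from different libraries. The series mapped the homeobox transcription factor HOXB13, the histone deacetylases HDAC3 and HDAC1, open chromatin (ATAC-seq) and the acetyl mark H3K27ac, which labels active regulatory DNA, in 2 human prostate cancer cell lines, LNCaP and PC-3. The cells of every group carried a short hairpin RNA (shRNA) vector, which in the controls was the control vector pGIPZ. LNCaP cells, infected for 7 days, gave a control library for HOXB13, HDAC3, HDAC1 and ATAC-seq, and a HOXB13 shRNA library for HOXB13, HDAC3 and ATAC-seq. Further LNCaP cells received the HOXB13 shRNA together with a lentivirus for wild-type HOXB13 (WT) or for its G84E variant, and from these HOXB13 libraries were analysed. PC-3 cells gave a control HOXB13 library, and a control and a HOXB13 shRNA library for H3K27ac. The PC-3 HOXB13 library was made with an antibody of another supplier than the LNCaP HOXB13 libraries. The 4 LNCaP H3K27ac samples were not analysed here. Each group was 1 library, so no test between conditions was possible and every interval below is a 95% interval of the tag counts alone, not of the spread between cultures. The identity of the lines could not be checked against expression markers, as only peak lists were used.

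KLK3 encodes prostate-specific antigen (PSA) and KLK2 encodes its close relative kallikrein 2. Both are secreted serine proteases of the prostate's luminal epithelium and are textbook targets of the androgen receptor, which acts on KLK3 through elements in its proximal promoter and through an enhancer several kilobases upstream. HOXB13 marks the prostate lineage and binds many of the enhancers that the androgen receptor uses, and HDAC3 is the catalytic subunit of the NCOR/SMRT corepressor complexes. LNCaP cells express the androgen receptor and secrete PSA, whereas PC-3 cells lack both. On the RefSeq assembly the neighbours are KLK15 and the long noncoding RNA gene LOC105372441 before KLK3, and the pseudogene KLKP1 and then KLK4 after KLK2.

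The proximal promoters of the pair are shown because HOXB13 was called at one of them and not at the other. Each is the RefSeq window (GRCh38.p14, plus strand) from 250 bases before to 50 bases after the gene's start. Capitals mark every match, on either strand, to AGAACA, the element bound by 1 androgen receptor monomer, and to the TATA box TATAAA.
KLK3, chr19:50854665-50854964: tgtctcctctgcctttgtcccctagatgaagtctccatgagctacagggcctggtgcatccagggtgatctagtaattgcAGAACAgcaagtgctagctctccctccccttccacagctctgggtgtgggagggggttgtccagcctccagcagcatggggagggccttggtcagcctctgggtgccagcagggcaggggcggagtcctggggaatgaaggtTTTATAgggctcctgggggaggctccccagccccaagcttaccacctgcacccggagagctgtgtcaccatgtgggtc
KLK2, chr19:50873189-50873488: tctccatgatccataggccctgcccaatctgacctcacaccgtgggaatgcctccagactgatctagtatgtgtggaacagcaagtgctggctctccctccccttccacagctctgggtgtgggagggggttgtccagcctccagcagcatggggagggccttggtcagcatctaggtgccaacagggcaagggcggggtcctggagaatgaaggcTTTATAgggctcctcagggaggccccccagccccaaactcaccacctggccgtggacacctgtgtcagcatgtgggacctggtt
The 2 windows aligned over 287 bases with 251 identical (87.5%), and the longest identical stretch was 80 bases, from 154 to 75 bases before the KLK3 start. Reads shorter than that stretch that lie inside it cannot be assigned to 1 of the genes; its part in the peaks was not tested. AGAACA was found in KLK3, 170 to 165 bases before the start, and the same place in KLK2 differs by the substitution A81G (KLK3 base, position from 1 at the window's 5′ end, KLK2 base). KLK2 thus reads GGAACA there, and both windows continue with gcaagtgct. Only the exact AGAACA was searched, so the missing match does not show that KLK2 lacks an androgen receptor element. AGAACA occurred in 14.8% of the 35116 RefSeq promoter windows of this length. The TATA box was found in both on the minus strand, printed as TTTATA on the strand shown, 28 to 23 bases before the KLK3 start and 34 to 29 bases before the KLK2 start, and in 11.5% of all windows. No match was found in either window to the HOXB13 motifs CCAATAAA (0.934% of all windows) and CTCGTAAA (0.137%), to CAATAAA (1406 windows; contained in the first), or to the forkhead motifs TGTTTAC (3.42%) and TATTTAC (2.67%). The HOXB13 peaks at the KLK3 promoter reached beyond the window, to 86 bp past the start in control LNCaP and 141 bp in PC-3. With G84E the peak began 280 bp before the start. The parts outside the window were not searched.

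Signal is given as the normalized tag count, the number of tags in a peak scaled to a library of 10000000 tags. Total tags ranged from 13.5 M to 47.2 M (M, mega) per library. The HOXB13 list was smaller after HOXB13 shRNA, with 22864 peaks and 2.13% of tags in peaks against 91430 peaks and 9.17% in the control. Only 1353 control peaks (1.48%) overlapped a peak listed after shRNA, so most peaks of that list lay away from control peaks. HOXB13 itself was not measured by RNA or protein here, and the part of library quality in this difference was not tested. The region held 8 HOXB13 peaks in the LNCaP control, or 100 per Mb, against 22.1 per Mb on chromosome 19 and 45.7 per Mb of the 2000 Mb genome size in the file header. It held 62.5 HDAC3 peaks per Mb in the control (21.7 on chromosome 19) and 87.5 control ATAC peaks per Mb (25.7). HOXB13 in PC-3 had 50.0 peaks per Mb in the region (20.4 on chromosome 19). After HOXB13 shRNA in LNCaP, HDAC3 had 25.0 (19.1) and ATAC 125 (21.0). The adjoining windows of the same length held fewer peaks: 29 in the 80 kb below and 15 in the 80 kb above, over all 12 lists. For the 5 HOXB13 lists these counts were 18 and 4, against 29 in the region. Of the 22 sites 14 had a HOXB13 peak in at least 1 list, 5 an HDAC3 peak and 11 an ATAC peak, and 11 were listed in 1 library only.

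**Figure D1:**
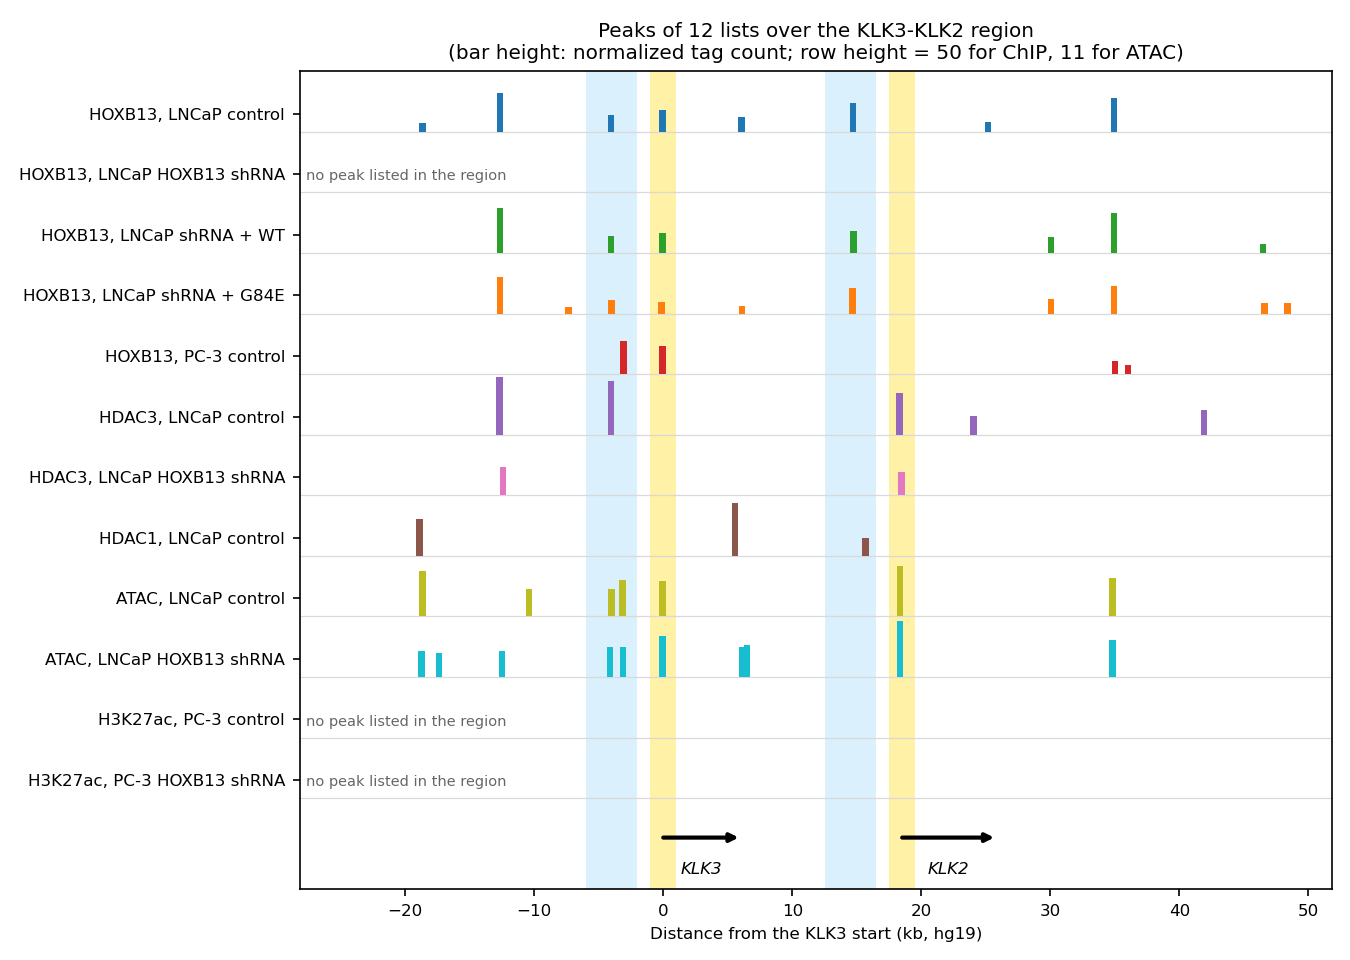
Peaks of the 12 lists drawn by the distance of their centre from the KLK3 start (kb, hg19), 1 row per library. Bar height is the normalized tag count, where the height of a row is 50 for ChIP-seq and 11 for ATAC-seq; yellow bands mark 1 kb on each side of the gene starts, blue bands 6 to 2 kb upstream of them. The HOXB13 shRNA row of HOXB13 and both PC-3 H3K27ac rows are empty, and the 5 sites common to the control, WT and G84E rows line up.

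HOXB13 in control LNCaP cells lay at the KLK3 promoter, at an upstream site of each gene and at 2 stronger sites outside the gene pair. The highest peak (chr19:51345365-51345655) was at a site centred 12.6 kb before the KLK3 start, with 31.7 normalized tags (95% CI 26.0 to 38.3; 109 tags), above 98.5% of all control HOXB13 peaks. The next was 16.5 kb past the KLK2 start and so beyond the gene's end (chr19:51392951-51393241), at 27.9 (22.6 to 34.1), and the site in the upstream window of KLK2 followed, 3.8 kb before its start (chr19:51372727-51373017), at 23.9 (19 to 29.6). These 3 lay 11.6- to 18.7-fold over their surroundings by the authors' own value, while the other 5 control peaks lay 4.42- to 6.27-fold over theirs, near the 4-fold that the peak caller required. The KLK3 promoter peak (chr19:51357967-51358257) had 17.8 normalized tags (13.6 to 22.8) and its centre was 59 bp before the start. The peak in the KLK3 upstream window (chr19:51353958-51354248), 4.1 kb before the start, where the androgen-responsive enhancer of PSA is known to lie, was lower, at 13.7 (10.0 to 18.2). The lower sites were just past the KLK3 end (12.5; 9.06 to 16.9), at the end of KLK2 (8.15; 5.41 to 11.8) and 18.8 kb before KLK3 (6.98; 4.47 to 10.4). The KLK2 promoter had no HOXB13 peak in any of the 5 HOXB13 lists.

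After HOXB13 shRNA the HOXB13 list held no peak in the region. None of the 8 control peaks was called again, and over the whole genome 98.5% of control peaks were not called again, a share near that of the region. Of control peaks within 20% of the height of the strongest one, at 31.7 normalized tags, 96.3% were not called again. The nearest peak after knockdown was at chr19:51314825-51315081, with its centre 43.2 kb from that of the KLK3 promoter peak. The lowest normalized tag count in the knockdown list was 3.18, below the 6.98 to 31.7 of the 8 control peaks. A peak in it also had to lie 4-fold over its surroundings, which the lower control peaks did only 4.42- to 6.27-fold. A value below the caller's threshold is not in the list, so the remaining signal at these sites cannot be given.

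Wild-type HOXB13 was called again at 5 of the 8 control sites and G84E at 6. The WT and G84E lists were larger, with 190879 and 191796 peaks against 91430 in the control. They held 17.1% and 15.6% of tags in peaks, against 9.17%. Over all peaks shared with the control the median log2 ratio was 0.17 for WT and 0.02 for G84E. In the whole list 32.6% of control peaks had no WT peak and 36.8% no G84E peak, so 3 and 2 missing sites of 8 are near the share of the list. The 5 sites common to the control, WT and G84E were those 12.6 and 4.1 kb before KLK3, the KLK3 promoter, the upstream site of KLK2 and the one past KLK2. At the site 12.6 kb before KLK3 the normalized tag counts were 31.7 in the control, 37.2 with WT (31.5 to 43.7) and 29.9 with G84E (25.0 to 35.4). At the KLK3 enhancer site, 4.1 kb upstream, they were 13.7, 14.2 (10.7 to 18.3) and 11.3 (8.40 to 14.9). These values overlap within their counting intervals.

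At the upstream site of KLK2 HOXB13 had 23.9 normalized tags in the control, 18.4 with WT (14.4 to 23.1) and 21.5 with G84E (17.4 to 26.3). Past KLK2 it had 27.9, 33.0 (27.7 to 39.1) and 22.4 (18.2 to 27.3). Every WT to control ratio in the region had an interval that held 0 on the log2 scale, from −0.38 (−0.85 to 0.09) at the upstream KLK2 site to 0.24 (−0.15 to 0.64) past KLK2. Of the 5 shared sites 0 were past 2-fold, against 11.7% of all peaks shared by the WT and control lists.

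Among the 5 sites common to the control, WT and G84E, the KLK3 promoter had the lowest ratio of G84E to the control and to WT. HOXB13 there had 17.8 normalized tags in the control, 16.4 with WT (12.7 to 20.9) and 9.73 with G84E (7.04 to 13.1). The interval of G84E lay below that of the control and overlapped that of WT. The log2 ratio of G84E to the control was −0.87 (−1.47 to −0.28), lower than at all but 5.62% of the peaks shared by those lists, and the ratio to WT was −0.75 (−1.34 to −0.18), lower than at all but 8.50%. The centre of the G84E peak also lay elsewhere, 139 bp before the KLK3 start against 62 bp with WT. A fixed-width peak with another centre counts other tags, and its part in the ratio was not tested. Just past the KLK3 end HOXB13 had 12.5 normalized tags in the control and 6.56 with G84E (4.40 to 9.43; log2 ratio −0.93, −1.66 to −0.22), and no WT peak was called; 11.6% of control peaks of like height had none with WT. The G84E peak there lay 4.02-fold over its surroundings, at the edge of what the caller accepts.

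Directly compared, all 7 WT peaks of the region had a G84E peak, while 45.0% of all WT peaks had none. Most of the 7 are high peaks: of WT peaks within 20% of their heights, 0.821% to 13.1% had no G84E peak for 6 of the sites and 42.2% for the lowest, 28.0 kb past the KLK2 start. The overlap is thus close to that of other peaks of these heights. The G84E list held 3 more, of 10, without a WT peak, against 45.2% of the list. Past KLK2 the G84E to WT log2 ratio was −0.56 (−0.95 to −0.17), and at the other 5 sites its interval held 0. Summed over the 7 shared sites it was −0.28 (−0.46 to −0.11), beside a median of −0.13 over all peaks shared by these lists. Past 2-fold were 0 of the 7, against 3.65% of all, and 0 of the 6 sites shared by G84E and the control, against 9.86%. These intervals are not adjusted for the number of sites, and 1 library stood for each form.

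Some sites lay outside the control set. With WT 2 of 7 peaks lay away from control peaks (67.7% in the list) and with G84E 4 of 10 (69.9%). The whole lists held mostly lower peaks than the region. The median was 6.46 normalized tags in the WT list and 16.4 in the region, and with G84E 6.34 and 10.5. Shares at like height were not computed in this direction. Both forms shared a site 11.5 kb past the KLK2 start (13.4 with WT and 12 with G84E) and one 28.0 kb past it (7.70 and 8.37). In the G84E list alone HOXB13 was called 7.3 kb before KLK3 (5.43; 3.48 to 8.08) and 29.9 kb past the KLK2 start (8.83; 6.28 to 12.1). All 4 of these sites were below 15.8 normalized tags, the median of the control peaks in the region.

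**Figure D2:**
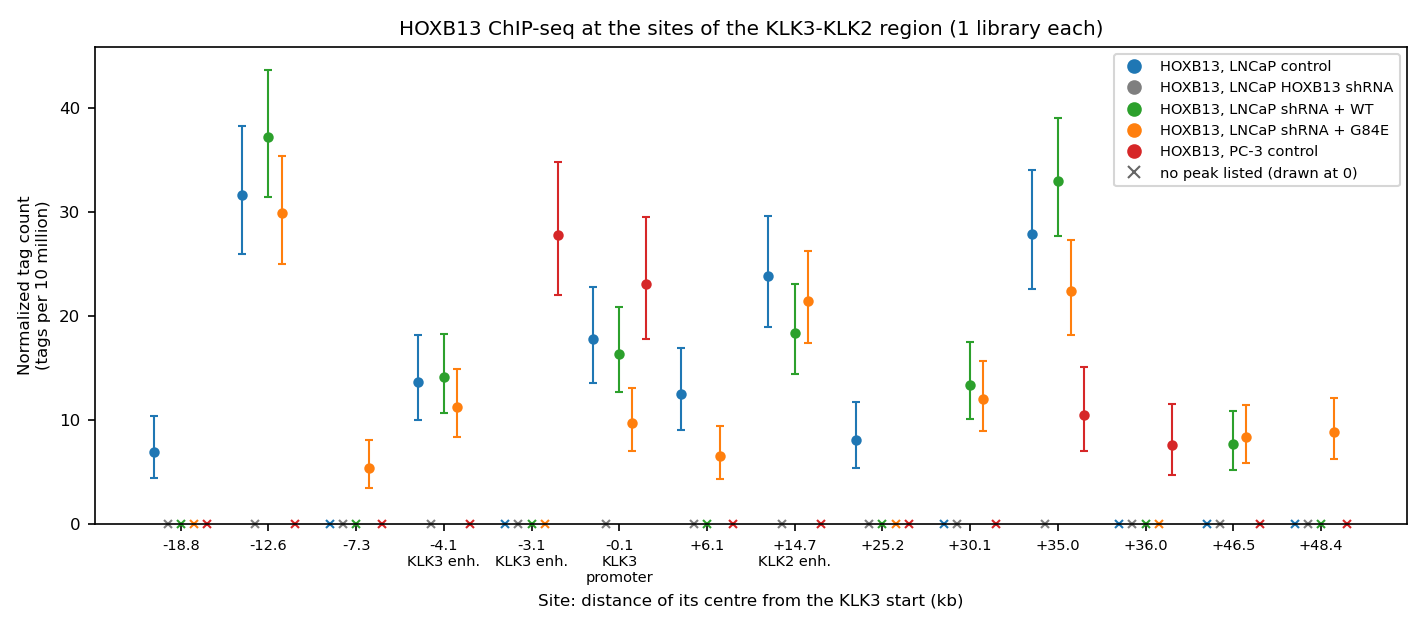
HOXB13 normalized tag counts (points) with 95% Poisson intervals (bars) at the 14 sites with a HOXB13 peak, ordered by the distance of the site centre from the KLK3 start (kb); crosses at 0 mark libraries with no listed peak, not a measured 0. The control, WT and G84E points stand together at the 5 common sites, G84E being lower at the KLK3 promoter (9.73 against 17.8 and 16.4), and the PC-3 points stand at 4 sites.

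PC-3 cells also had a HOXB13 peak at the KLK3 promoter. It lay at chr19:51357922-51358312 with 23.1 normalized tags (17.8 to 29.5), against 17.8 in LNCaP, and the centres of the peaks in the 2 lines were 5 bp apart. The log2 ratio of PC-3 to LNCaP was 0.38 (−0.15 to 0.91), and −0.05 per bp of peak, as the PC-3 peaks were 390 bp and the LNCaP peaks 290 bp wide. Centred on the median of all peaks shared by the lines, which was 0.73, it was −0.34, so its direction depends on the scaling. In the upstream window of KLK3 the lines differed in position. The PC-3 peak (chr19:51354910-51355300; 27.8 normalized tags, 22.0 to 34.8) was centred 1002 bp from the LNCaP peak, nearer to the gene, and 76 bp from a control ATAC peak of LNCaP where no LNCaP HOXB13 list had a peak.

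The LNCaP sites 12.6 kb before KLK3 and 3.8 kb before KLK2 had no PC-3 peak. Of LNCaP peaks of like height 49.3% and 55.1% had none. Past KLK2 HOXB13 had 10.5 normalized tags in PC-3 (7.02 to 15.1) and 27.9 in LNCaP, a log2 ratio of −1.41 (−2.07 to −0.80). This ratio was −1.84 per bp of peak and −2.14 when centred, lower under each scaling. A further PC-3 peak lay 17.5 kb past the KLK2 start (7.59; 4.70 to 11.6). In all, 6 of the 8 LNCaP peaks of the region had no PC-3 peak, against 78.9% of the LNCaP list, and 2 of the 4 PC-3 peaks had no LNCaP peak, against 72.8% of the PC-3 list. Of the 2 shared sites 1 was past 2-fold, against 43.2% of all shared peaks. The antibody and the cell line changed together between these libraries and cannot be told apart.

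H3K27ac was not called anywhere in the region in PC-3, in the control or after HOXB13 shRNA. None of the 4 PC-3 HOXB13 peaks therefore lay in an acetylated region. Of all PC-3 HOXB13 peaks 34.5% lay in a region of the control H3K27ac list and 37.1% in one of the knockdown list. Only 4 peaks were counted and shares at like height were not computed, so this does not set the region apart. The nearest acetylated region below was 49.1 kb from the KLK3 start, at chr19:51305876-51309050, with 378 normalized tags in the control. After knockdown it had 563 and was wider, spanning chr19:51305457-51309041. The whole list moved the same way, with a median log2 ratio of 0.31 over all shared regions. Regions held 46.2% of tags after knockdown and 38.9% in the control, and the change at this region was not tested. Above, the nearest began 226.7 kb past the KLK2 end. With 15.0 M and 13.5 M tags these lists went down to 8.02 and 8.13 normalized tags, so weaker acetylation was not detectable.

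HDAC3 in control LNCaP cells was at 5 sites of the region, of which 2 also had HOXB13. The highest was again 12.6 kb before KLK3 (chr19:51345251-51345721), with 47.8 normalized tags (39.0 to 57.9), its centre 24 bp from that of HOXB13. The KLK3 upstream enhancer site (chr19:51353881-51354351) was nearly as high, at 44.5 (36.1 to 54.4), 13 bp from the HOXB13 centre. The KLK2 promoter (chr19:51376233-51376703) had 34.8 (27.4 to 43.6), with no HOXB13 peak. Lower peaks lay in the KLK2 gene body (15.3; 10.5 to 21.5) and 23.4 kb past its start (20.4; 14.8 to 27.4). The KLK3 promoter, with HOXB13, had no HDAC3 peak, so the promoters of the pair differed in the listed peaks of both factors. Of HOXB13 peaks of like height to the one at the KLK3 promoter, 69.8% had no HDAC3 peak. Signal below the caller's threshold is not in the lists, so a difference in occupancy cannot be given. Of the 8 control HOXB13 peaks 2 had an HDAC3 peak, against 13.4% of the list, and 8.31% to 46.8% of HOXB13 peaks of like height over the 8 sites.

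After HOXB13 shRNA HDAC3 was called at 2 of those 5 sites, and the KLK3 enhancer site was not among them. Over the list 52.3% of control HDAC3 peaks had no knockdown peak, but of those within 20% of the height of the enhancer site, at 44.5 normalized tags, 13.2% had none. Its nearest HDAC3 peak after knockdown was centred 8.4 kb away. The knockdown list went down to 4.56 normalized tags, and a peak in it also had to lie 4-fold over its surroundings, which the enhancer site did 5.04-fold in the control. At the site 12.6 kb before KLK3 HDAC3 had 47.8 normalized tags in control cells and 23.6 in knockdown cells (18.1 to 30.2; log2 ratio −1.02, −1.50 to −0.55). At the KLK2 promoter it had 34.8 and 19 (14.1 to 25.1; −0.87, −1.42 to −0.34), without HOXB13 in the control. In both places the interval after knockdown lay below that of the control. The whole list moved the same way, with a median log2 ratio of −0.44, and 14.4% of all shared peaks had a lower ratio than the first of these sites and 20.7% a lower one than the KLK2 promoter.

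The HDAC3 libraries also differed in make-up. Fragments were estimated at 146 bp for control cells and 364 bp for knockdown cells, peaks were 470 and 364 bp wide, and peaks held 7.63% and 5.08% of tags. As tag density the 2 ratios were −0.65 and −0.50. The centres moved by 265 bp at the site before KLK3 and by 180 bp at the KLK2 promoter, so with centres required within 100 bp none of the 5 control sites was retained. Past 2-fold was 1 of the 2 shared sites, against 15.4% of all. No knockdown HDAC3 peak of the region lacked a control peak, against 47.8% of the list. The part of these library differences in the lower values was not tested.

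HDAC1 was measured in the control only. Its peaks were 18.8 kb before KLK3 (chr19:51339132-51339448; 30.1 normalized tags, 21.7 to 40.7), at the 3′ end of the KLK3 gene body (chr19:51363565-51363881; 43.7, 33.4 to 56.1) and 2.8 kb before KLK2 (chr19:51373692-51374008; 15.0, 9.31 to 23.0). The one in KLK3 was above 96.0% of the HDAC1 list. Of the 5 control HDAC3 peaks 0 had an HDAC1 peak, against 20.8% of all HDAC3 peaks. Of HDAC3 peaks within 20% of the same height, 58.1% had one for the site 12.6 kb before KLK3, 56.0% for the KLK3 enhancer site and 49.3% for the KLK2 promoter, and 14.3% and 25.6% for the lower sites in and past KLK2. Of the HDAC1 sites the first also had a HOXB13 and an ATAC peak in the control, centred 209 and 205 bp from the HDAC1 peak. The control ATAC peak overlapped the HDAC1 peak only at its edge.

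Open chromatin in control LNCaP cells was called at both promoters, at both parts of the KLK3 upstream window and at 3 further sites. The KLK2 promoter had the highest ATAC peak, with 9.13 normalized tags (6.29 to 12.8; chr19:51376453-51376549), and the KLK3 promoter had 6.37 (4.04 to 9.55; chr19:51358079-51358175). In the KLK3 upstream window the ATAC peaks had 4.98 (2.95 to 7.87) at 4.1 kb and 6.64 (4.26 to 9.88) at 3.1 kb before the start. The others were 18.8 kb before KLK3 (8.30), 10.4 kb before KLK3 (4.98) and past KLK2 (6.92). Of the 8 control HOXB13 peaks 4 had an ATAC peak, against 10.3% of the list and 6.20% to 37.9% of peaks of like height over the 8 sites. These were the promoter, the site at 4.1 kb, the one past KLK2 and the one 18.8 kb before KLK3. The strongest HOXB13 site, 12.6 kb before KLK3, and the upstream site of KLK2 had none in the control.

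Accessibility at both promoters was called again after HOXB13 shRNA. At the KLK3 promoter ATAC had 6.37 normalized tags in control cells and 7.46 in knockdown cells (4.49 to 11.6; log2 ratio 0.23, −0.73 to 1.17), and at the KLK2 promoter 9.13 and 10.2 (6.67 to 15.0; 0.16, −0.64 to 0.95). Of the 7 control ATAC peaks 5 were called again and 2 were not, while 50.0% of the list were not. One of those 2, at 4.1 kb in the KLK3 upstream window, had a knockdown peak (5.49; 3.00 to 9.22) whose edge lay 25 bp away. Past 2-fold were 0 of the 5 shared sites, against 3.12% of all. The largest shift among them was 18.8 kb before KLK3, from 8.30 to 4.71 (−0.82, −1.92 to 0.19), an interval that held 0, with 1.61% of all shared peaks lower. These shared peaks held 12 to 33 tags each, so a change within those intervals was not detectable.

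The ATAC libraries differed in depth, with 36.1 M tags in the control and 25.5 M after knockdown, and in peak width (96 and 110 bp). For ATAC peaks of the knockdown list, shares at like height were not computed. Of the 10 ATAC peaks after knockdown 5 lacked a control peak, against 38.1% of the list. Besides the one in the KLK3 upstream window these were 17.4 kb before KLK3 (4.32; 2.16 to 7.72), at the HOXB13 and HDAC3 site 12.6 kb before KLK3 (4.71; 2.43 to 8.23) and a pair just past the KLK3 end (5.49 and 5.89). Each had 11 to 15 recovered tags and a findPeaks score of 10 to 15, where the false discovery rate of the knockdown list gave a threshold of 10. That list went down to 3.14 normalized tags, below the 3.92 that this threshold equals, so the recovered tags cannot be set against it.

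**Figure D3:**
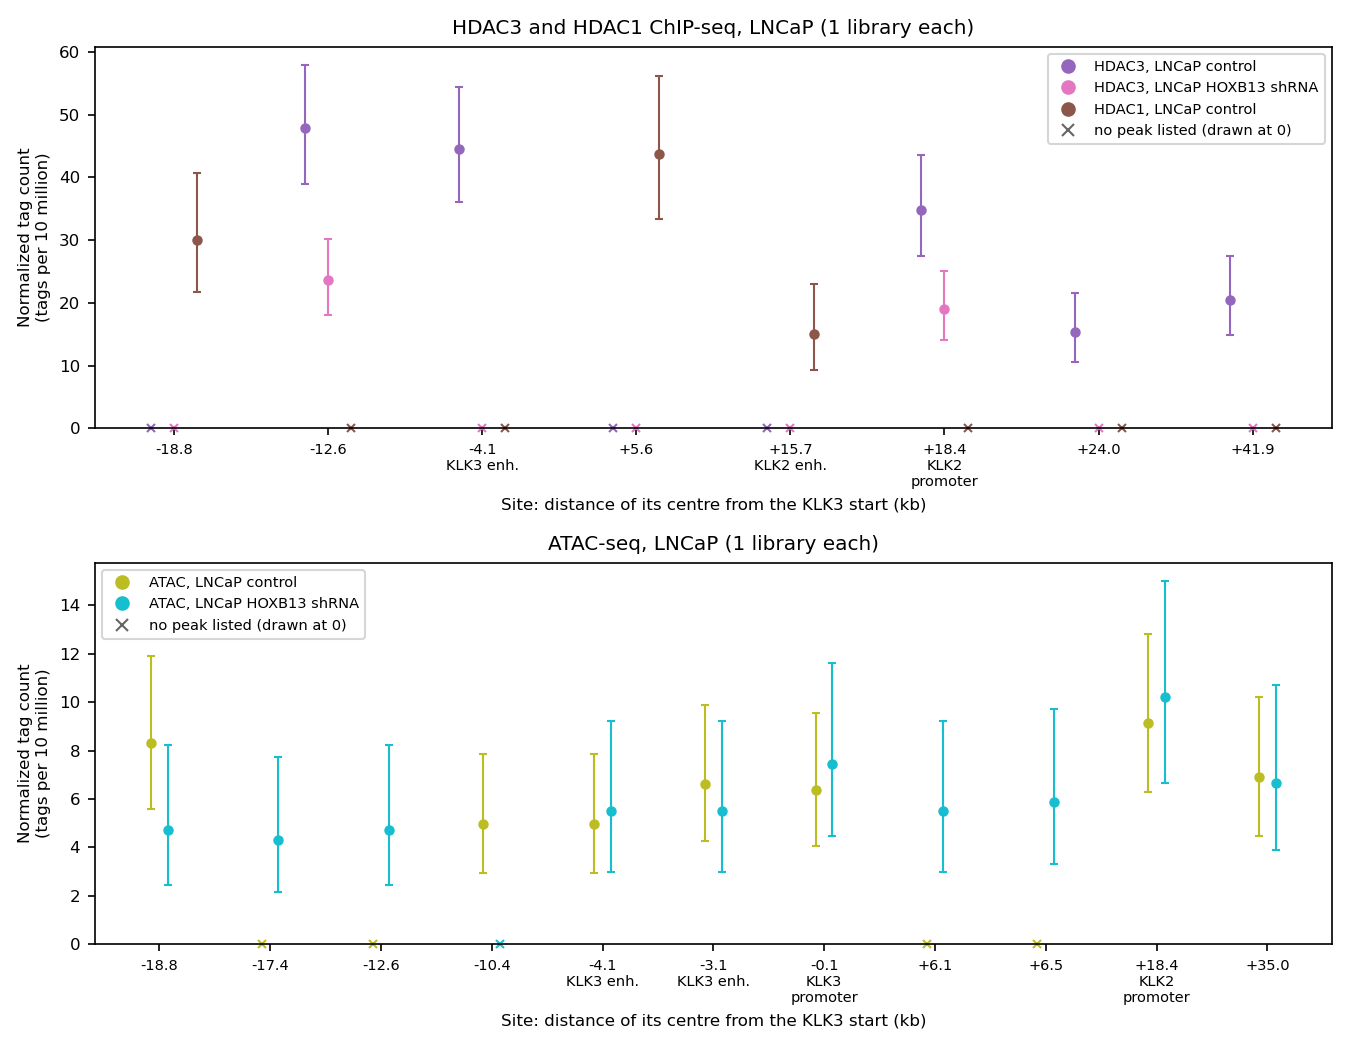
Normalized tag counts (points) with 95% Poisson intervals (bars) of HDAC3 and HDAC1 (upper panel) and ATAC-seq (lower panel) in LNCaP, by distance of the site centre from the KLK3 start (kb); crosses at 0 mark libraries with no listed peak. HDAC3 was at 47.8 and 23.6 at −12.6 kb, at 34.8 and 19 at the KLK2 promoter, and had no knockdown peak at −4.1 kb, and the ATAC intervals of both libraries overlap wherever both had a peak.

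**Figure D4:**
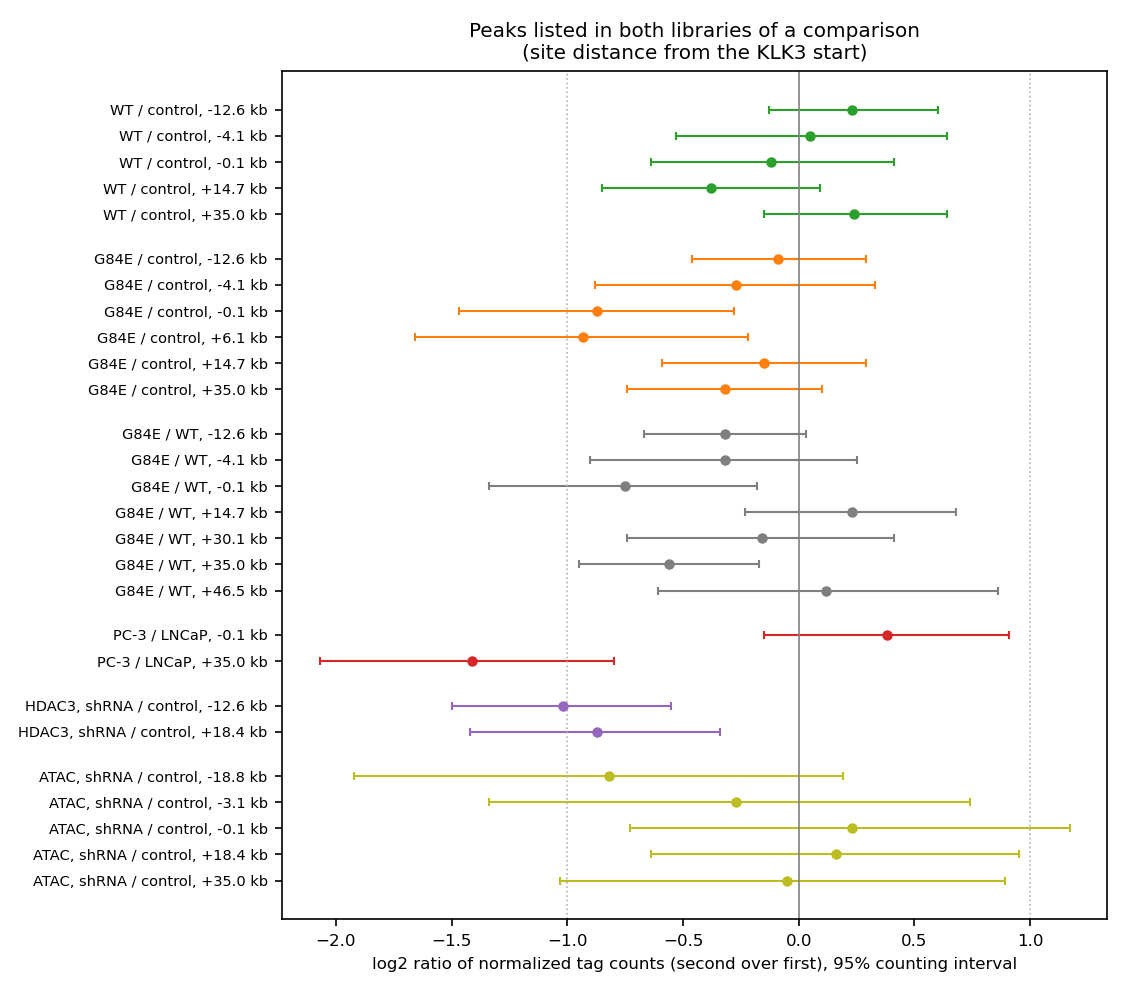
Log2 ratios of normalized tag counts (points, second library over first) with 95% counting intervals (bars) at every site of the region listed in both libraries of a comparison; dotted lines mark 2-fold. Only the PC-3 to LNCaP ratio past KLK2 (−1.41) and the HDAC3 ratio at −12.6 kb (−1.02) lie beyond a dotted line.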

How the data were processed

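Peak lists of 12 libraries were analysed. The build, hg19, and the tools Bowtie2 and HOMER 4.2 are as given per the submitters' processing notes. Peaks were called by the authors, per the file headers, in each library alone with HOMER findPeaks and no input library. The factor style (false discovery rate 0.001, 4-fold over the surrounding 10000 bp at p 0.0001, 1 width per library) was used for 10 lists and the histone style, with windows of 1000 bp, for H3K27ac. The deposited signal is the normalized tag count per 10000000 tags. The deposited findPeaks score served to take the better-scoring part of a list, and the deposited fold over the surroundings (a ratio) only to describe peaks.

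Whole tags were recovered from signal and library totals (largest deviation 0.187 tags) and gave exact Poisson intervals. Ratios have exact (Clopper-Pearson) intervals. Both cover counting error only. An overlap of 1 bp or more made peaks shared, and where several did, the highest was used. Background shares are over all peaks of a list on all chromosomes. Promoter windows reached 1 kb to each side of a gene start, and upstream windows from 6 to 2 kb before it. Coordinates are as deposited. Gene positions are those given with the choice of the region, and exons and introns were not used here. All sites in those windows were to be named, with those in at least 3 lists or among a list's 3 highest in the region. The region, its members and the motifs were chosen with earlier results of these data known. Functions were tested on simulated data. Python 3.11.15, numpy 2.4.6, pandas 2.3.3, scipy 1.17.1, Biopython 1.88 and matplotlib 3.10.9 were used.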

Additional observations from a re-analysis of the deposited data

How the results depend on the processing

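Of 72 alternative values 64 stayed within their limits, a fixed fold for counts and the counting interval for ratios. Some of these could not move, so their number does not measure robustness. PC-3 H3K27ac had no peak in the region, so its alternatives were 0 by construction. HOXB13 after knockdown and HDAC1 at HDAC3 peaks were already 0, which stricter settings could not change. HDAC3 after knockdown was retained at 2 of 5 control sites with any overlap, at 0 with centres within 100 bp and at 1 with an overlap of 50% of the shorter peak. Its summed log2 ratio at shared peaks was −0.96, −0.59 as tag density and −0.51 centred on the median of all shared peaks. PC-3 HOXB13 was at 2 of 8 LNCaP sites, and at 1 with the better-scoring 50% of the PC-3 list. The summed PC-3 to LNCaP ratio was −0.44, −0.87 as density and −1.17 centred. The summed WT to control ratio was 0.05 and reversed to −0.12 when centred, within its counting interval. The cause of these shifts was not tested beyond the construction of each alternative. Counting peaks with edges up to 200 bp apart as shared was chosen after seeing the data and gave 6 retained ATAC sites in place of 5. No paired analysis was possible because each group held 1 library. Depth limits all values to peaks above each list's threshold.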
